A study of Mus musculus with 12 samples.

Results

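The 10 heat shock chaperone genes Hspa1a, Hspa1b, Dnajb1, Hsph1, Hsp90aa1, Hsp90ab1, Hspa8, Hspd1, Hspe1 and Hspa5 were examined in CD8 T cells of the NOD/ShiLtJ mouse, an inbred strain that develops autoimmune diabetes. They were taken by name as the main heat-inducible and constitutive chaperones, by a rule that states no measured value but was written with earlier results of these data known, and are 10 of the 32285 genes in the count matrices. Droplet-based 5′ single-cell RNA sequencing had been carried out on 3 sorted groups in 2 rounds, each round from a separate pool of 10 prediabetic female mice aged 10 to 15 wk, so that there were 6 libraries. Cells binding the IGRP tetramer (Tet+), which marks CD8 T cells with receptors for a beta cell autoantigen, were sorted from islets and from spleen, and CD8 T cells that did not bind it (Tet-) were sorted from islets. Each library is therefore a pool of animals, and a group holds 2 libraries. Both islet groups came from the same suspension: islets were freed with collagenase P for 16 min at 37 °C, picked by hand, dispersed without enzyme and rested in medium for 1 h at 37 °C. Spleens were disrupted mechanically, freed of red cells and enriched for CD8 T cells with magnetic beads. The paper also says that the spleen cells were sorted as CD44+, which its text does not say of islet cells. Tissue, handling and this gate therefore cannot be told apart in any comparison of islet with spleen. The comparison of Tet+ with Tet- islet cells shares the digestion.

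Cells with under 5% mitochondrial UMIs and 200 to 3500 detected genes (islets) or 200 to 2000 (spleen) were kept, which left 24117 of 26818 barcodes. A UMI is a molecular tag that counts each captured transcript once. The libraries held 1204 to 8932 kept cells and 5880696 to 40469961 UMIs, with a median of 3793 to 4216.5 UMIs per cell in islets and 2590 to 2764.5 in spleen. The CD8 T cell markers Cd3d, Cd3e, Cd3g, Cd8a, Cd8b1 and Trac summed to between 4198 and 5884 CPM (UMI counts of a gene per 1000000 UMIs of its library), and Cd4 was at or under 0.173. Transcripts of 12 exocrine genes summed to 134.2 to 464.6 CPM in the Tet- islet libraries, 45.2 to 161.4 in the Tet+ islet libraries and 2.03 to 2.91 in spleen, and those of 7 endocrine genes to 5.44 to 136.6 in islets and at most 0.145 in spleen. Any 2 libraries shared 2 to 64 cell barcodes.

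Chaperones bind unfolded or newly made proteins and help them to fold. HSP70 and HSP90 proteins are the main cytosolic machines, HSP40 (J-domain) proteins deliver clients to HSP70, HSP60 and HSP10 form the folding chamber of the mitochondrion, and BiP serves the endoplasmic reticulum (ER). Heat and proteotoxic stress activate the transcription factor HSF1, which binds inverted repeats of the unit GAA in heat shock promoters, whereas ER stress acts through ER stress elements. Inducible chaperone transcripts are also known to appear in cells that were warmed or digested during isolation.

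The regulatory letters in front of the chaperone genes are shown first because several members share a motif there. RefSeq promoter windows (GRCm38.p6) were matched for 7 of the 10 members and none was available here for Hsp90aa1, Hsp90ab1 or Hspa8. The heat shock motif was searched as GAANNTTC or TTCNNGAA, both of which read the same on the other strand, in the 250 bases upstream of each start. It was present for 5 of the 7 members (Hspa1a, Hspa1b, Hsph1, Hspd1 and Hspe1) and in 12.8% of all 32851 promoter windows. A run of 3 such units stood in front of Hspe1 and Hspd1 and in 0.466% of all windows. A member was counted if any of its windows matched (10 windows for the 7 members), whereas the shares are over single windows. Hspa1a and Hspa1b carry the same match, and Hspe1 and Hspd1 the same bases on opposite strands, so these matches are not separate. The ER stress element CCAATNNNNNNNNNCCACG was found for Hspa5 alone among the members and in 0.113% of all windows (either strand). Capitals mark the motif in the sequences, which are written 5′ to 3′ on the strand of the gene.
Hspa1a upstream (GRCm38, chr17:34972157-34972306, minus strand): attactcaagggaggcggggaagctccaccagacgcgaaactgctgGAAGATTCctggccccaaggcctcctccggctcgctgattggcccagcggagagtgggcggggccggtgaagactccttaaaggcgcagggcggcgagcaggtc
Hspa1b upstream (GRCm38, chr17:34959239-34959388, minus strand): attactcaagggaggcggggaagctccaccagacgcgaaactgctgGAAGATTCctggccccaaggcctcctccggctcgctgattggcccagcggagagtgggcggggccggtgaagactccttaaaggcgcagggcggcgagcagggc
Hsph1 upstream (GRCm38, chr5:149636358-149636373, minus strand): atctTTCTCGAAggct
Hspe1 upstream (GRCm38, chr1:55088055-55088080, plus strand): tccgTTCTAGAACCTTCCGGAAggcc
Hspa5 upstream (GRCm38, chr2:34772021-34772047, plus strand): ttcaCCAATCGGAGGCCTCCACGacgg

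Hspa1a and Hspa1b, whose starts lie 12918 bases apart on chromosome 17, differed at 3 of the 250 upstream bases and at 1 of the 150 printed. Hspe1 and Hspd1 start 111 bases apart on opposite strands of chromosome 1 and their annotated spans overlap, so the Hspe1 stretch, read from the other strand, lies upstream of 1 of the 2 RefSeq starts of Hspd1. It lies inside the GENCODE span of Hspd1, and the window upstream of the other RefSeq start, which is the GENCODE one, held no motif. The Hsph1 and Hspa5 stretches lie upstream of a RefSeq start but inside the GENCODE gene span. The windows of Dnajb1 held neither motif. A match is a description of letters and was not tested for binding.

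**Figure D1:**
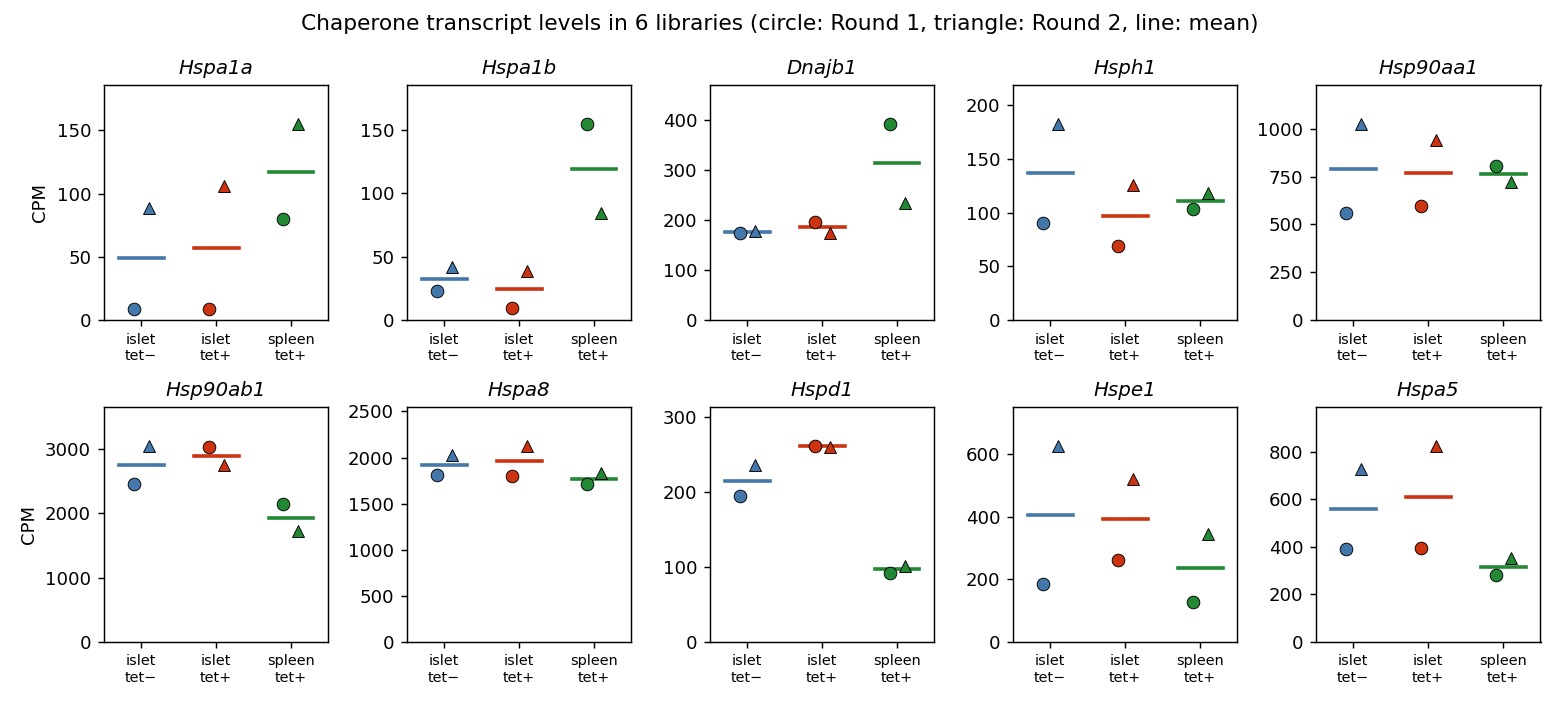
Level of each chaperone transcript (vertical axis, CPM of the library, each panel starting at 0) in the 3 sorted groups (horizontal axis), with a circle for Round 1, a triangle for Round 2 and a line at the mean of both. Hspd1 lies between 194.2 and 261.7 in the 4 islet libraries and at 92.2 and 100.9 in spleen, while the Hspa1a points of the 2 rounds are far apart within every group.

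Hspa1a and Hspa1b encode the stress-inducible HSP70 proteins and are the genes most closely tied to heat shock. Hspa1a (chr17:34969190-34972156, minus strand, GRCm38) was measured at 9.09 CPM in Tet- islet cells of Round 1 and 88.9 in Round 2, at 8.67 and 105.9 in Tet+ islet cells, and at 79.6 and 155.0 in spleen. Both rounds gave more Hspa1a in spleen than in either islet group of the same round, but the islet libraries of Round 2 lay above the spleen library of Round 1, so the groups overlapped. For Hspa1b (chr17:34956436-34959238, minus strand) the levels were 22.6 and 41.8 in Tet- islet cells, 9.69 and 39.1 in Tet+ islet cells and 154.7 and 84.4 in spleen, with no overlap between islet and spleen. The spleen level of Hspa1b was 16.0 times that of Tet+ islet cells in Round 1 and 2.16 times in Round 2.

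The division of reads between these paralogs is uncertain. Of all windows of 90 transcript bases, 58.8% of those of Hspa1a and 52.3% of those of Hspa1b occurred word for word in another annotated transcript, and of windows of 150 bases 46.0% and 40.5%. Hspa1a took 28.7%, 47.2% and 34.0% of the pair's UMIs in the Round 1 libraries (islet Tet-, islet Tet+ and spleen) and 68.0%, 73.0% and 64.8% in Round 2, and the methods give a shorter second read for Round 1. Windows of 90 bases were also shared with other transcripts for Hspa8 (65.3%), Hsp90aa1 (50.0%), Hspd1 (29.4%) and Hspe1 (25.0%), and for none of Dnajb1, Hsph1, Hsp90ab1 and Hspa5. The sum of Hspa1a and Hspa1b does not depend on how counted reads were divided between the 2 genes. It was 31.7 and 130.7 CPM in Tet- islet cells, 18.4 and 145.0 in Tet+ islet cells, and 234.3 and 239.4 in spleen, which is a mean of 236.9 ± 3.65 in spleen (SD, n = 2) against 81.2 ± 70.0 and 81.7 ± 89.5 in the islet groups. Spleen varied little in the sum, and the islet groups differed between rounds more than they differed from each other. Any reads not counted because they fitted both genes are missing from the sum. Their share may differ between rounds with read length and was not measured.

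Dnajb1 and Hsph1 complete the inducible set. Dnajb1, the main inducible HSP40 (chr8:83608193-83612653), stood at 174.7 and 179.1 CPM in Tet- islet cells, 195.4 and 175.2 in Tet+ islet cells and 392.2 and 234.5 in spleen. Every spleen value lay above every islet value, with a ratio of spleen to Tet+ islet cells of 2.01 in Round 1 and 1.34 in Round 2. Hsph1, which encodes HSP110, a nucleotide exchange factor for HSP70 (chr5:149614287-149636376, minus strand), had 90.8 and 182.3, 68.5 and 125.9, and 103.6 and 117.8 CPM in the same order of groups. Its groups overlapped, and the Tet+ islet library was the lower of the islet pair in both rounds.

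The constitutive cytosolic chaperones behaved differently from each other. Hsp90ab1, the constitutive HSP90 (chr17:45567775-45573271, minus strand), was at 2455 and 3049 CPM in Tet- islet cells, 3038 and 2745 in Tet+ islet cells and 2141 and 1716 in spleen, so that spleen was lowest in both rounds and did not overlap with islets. Hsp90aa1, the HSP90 gene that is also heat-inducible (chr12:110690605-110702728, minus strand), was at 559.5 and 1024, 597.0 and 938.7, and 802.9 and 722.4, with spleen between the islet values of the 2 rounds. Hspa8, the constitutive HSC70 (chr9:40800984-40810087), ranged only from 1711 to 2126 over the 6 libraries. Hspa8 and Hsp90aa1 each had overlapping levels in the 3 groups.

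Hspd1 and Hspe1 encode HSP60 and its lid HSP10 in the mitochondrial matrix. Hspd1 (chr1:55077835-55088243, minus strand) had 194.2 and 235.7 CPM in Tet- islet cells, 261.7 and 260.7 in Tet+ islet cells and 92.2 and 100.9 in spleen. Its Tet+ islet libraries were nearly equal (261.2 ± 0.678, SD, n = 2), and both lay above both Tet- islet libraries. That difference did not pass the test given below. Hspe1 (chr1:55088132-55091307) had 184.7 and 627.4, 263.4 and 521.7, and 127.4 and 346.0 in the same order. Hspe1 was lower in spleen than in both islet groups of the same round, but its Round 2 spleen value lay above both Round 1 islet values, so that the groups overlapped.

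Hspa5 encodes BiP, the HSP70 of the ER and a standard readout of the unfolded protein response (chr2:34771970-34777547). Its levels were 388.9 and 729.7 CPM in Tet- islet cells, 394.0 and 825.2 in Tet+ islet cells and 280.4 and 353.1 in spleen. Spleen was below islets without overlap, by a wider margin in Round 2. On the CPM scale Round 2 exceeded Round 1 in all 3 groups for Hspa1a, Hspe1, Hspa5, Hsph1 and Hspa8. With the scaling used in the tests this held for Hspa1a, Hspe1 and Hspa5 alone. The log2 difference of Round 2 from Round 1 was then -0.0065 in Tet+ islet cells and -0.17 in spleen for Hspa8, and -0.08 in spleen for Hsph1.

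**Figure D2:**
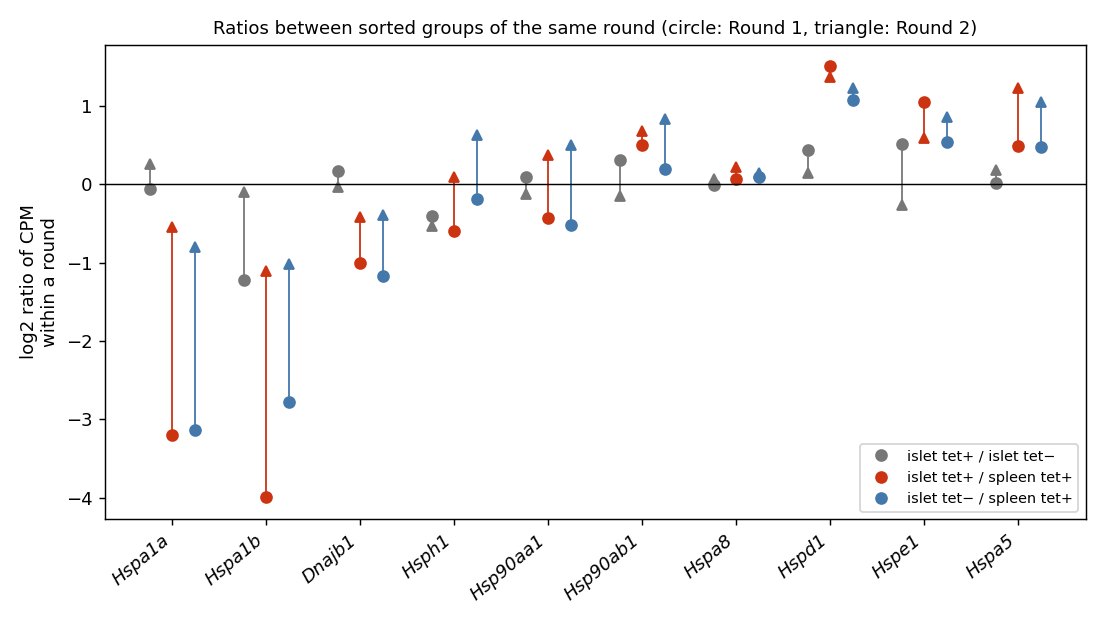
Log2 ratio of CPM between 2 sorted groups of the same round (vertical axis) for each chaperone gene (horizontal axis), with grey, red and blue for the 3 pairs of groups named in the key, a circle for Round 1, a triangle for Round 2 and a line joining them. Hspa1a, Hspa1b and Dnajb1 lie below 0 and Hspd1, Hspe1, Hspa5 and Hsp90ab1 above 0 in both rounds for both islet groups against spleen, and the round distance is widest for Hspa1a and Hspa1b.

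To ask whether antigen-specific islet T cells differ in chaperone transcripts from their neighbours in the same digest, UMI counts were summed per library and the groups were compared with the edgeR quasi-likelihood test, with p-values adjusted over all 11277 genes tested. None of the 10 members passed an adjusted p of 0.05 between Tet+ and Tet- islet cells, where 1.19% of all genes did. The count was also 0 at an unadjusted p under 0.05 and with DESeq2. The median log2 difference of the members was 0.05, against -0.01 for all genes. The value for Hspd1 was a log2 difference of 0.29 ± 0.17 (SE; edgeR adjusted p = 0.415) and that for Hsph1 was -0.50 ± 0.34 (adjusted p = 0.472). With the round as a block, 30.5% of all genes and still none of the members passed, while 2 members were under an unadjusted p of 0.05 (Hsph1, adjusted p = 0.0525, and Hspd1, adjusted p = 0.0986). Precision was lowest for Hspa1a, for which the SE was 1.22 on the log2 scale without the block and 0.42 with it.

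The comparison of Tet+ cells of islets with those of spleen asks how the same specificity differs between the tissue under attack and a lymphoid organ. Hspd1 was 2.90-fold higher in islets (log2 difference 1.54 ± 0.17 SE, edgeR adjusted p = 0.00425) and Hspa1b was 4.90-fold lower (-2.29 ± 0.66, adjusted p = 0.0492). These were 1 of 10 members higher, where 13.7% of all genes were, and 1 of 10 lower, where 12.9% were. Hspa5 (log2 difference 1.01 ± 0.37, adjusted p = 0.0936), Hsp90ab1 (0.67 ± 0.31, adjusted p = 0.159), Dnajb1 (-0.69 ± 0.35, adjusted p = 0.189), Hspe1 (0.85 ± 0.63, adjusted p = 0.361) and Hspa1a (-0.99 ± 1.23, adjusted p = 0.589) did not pass in edgeR, nor did Hspa8, Hsp90aa1 and Hsph1. The Hspa1b call was lost without the Round 1 islet library, without either spleen library (edgeR adjusted p of 0.0734 to 0.183 over the 3) and under 5 other settings. Its log2 difference ran from -1.63 (without the Round 1 spleen library) to -3.44 (without the Round 2 islet library) with 1 library left out, and from -1.91 to -2.29 under those 5 settings. The summed pair gave -1.53 (edgeR adjusted p = 0.269). The median log2 difference of the members was 0.15, against -0.03 for all genes.

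With the round as a block, 7 of the 10 members passed in this comparison, with 28.0% of all genes higher and 27.1% lower. The 4 that were higher in islets were Hspd1 (log2 difference 1.53, adjusted p = 5.75e-07), Hspa5 (0.94, adjusted p = 0.000351), Hspe1 (0.93, adjusted p = 0.000488) and Hsp90ab1 (0.68, adjusted p = 0.00434) in edgeR. The 3 that were lower were Hspa1b (-2.33, edgeR adjusted p = 0.000502), Dnajb1 (-0.64, adjusted p = 0.00638) and Hspa1a (-1.62, adjusted p = 0.00745). The summed pair was lower as well (-2.03, edgeR adjusted p = 0.00195). The inducible Hsph1 (-0.17, edgeR adjusted p = 0.439) and the cytosolic Hspa8 (0.24, adjusted p = 0.138) and Hsp90aa1 (0.04, adjusted p = 0.893) did not pass, so the calls did not cover whole classes.

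Tet- islet cells were compared with the same spleen libraries, so the results are not independent of the previous comparison. Hspd1 was 2.37-fold higher in islets (log2 difference 1.25 ± 0.17 SE, edgeR adjusted p = 0.00818), 1 of 10 members where 12.2% of all genes were higher, and no member passed in the other direction, where 10.2% of genes did. Hspa1b stood at -1.85 ± 0.63 (edgeR adjusted p = 0.0865). The members' median was 0.30, against 0.02 for all genes. The Hspd1 call was lost without the Round 2 islet library or either spleen library (edgeR adjusted p of 0.0566 to 0.0713), although its log2 difference stayed at 1.18 to 1.29. With the round as a block 7 members passed, with 29.2% of all genes higher and 26.3% lower: Hspd1, Hspa5 (log2 difference 0.84, edgeR adjusted p = 0.000746), Hspe1 (0.81, adjusted p = 0.00115) and Hsp90ab1 (0.62, adjusted p = 0.00759) were higher, and Hspa1b (-1.92, adjusted p = 0.00089), Hspa1a (-1.87, adjusted p = 0.00192) and Dnajb1 (-0.69, adjusted p = 0.00371) lower.

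Cells of the same T cell clone were found in islets and spleen, which holds the receptor constant. In Round 1, 31 clones shared by Tet+ islet and spleen cells comprised 632 islet and 1375 spleen cells, and in Round 2, 35 clones comprised 1134 and 1445. Within them Hspd1 stood at 267.1 CPM in islets and 85.9 in spleen in Round 1 and at 261.5 and 100.9 in Round 2. Hspa1b stood at 8.88 and 175.8 in Round 1 and at 38.3 and 93.6 in Round 2, and Dnajb1 at 184.5 and 417.4 and at 176.8 and 235.0. Hspa5 stood at 390.0 and 302.6 and at 824.2 and 350.3. These directions were those of the whole libraries in both rounds. The cells are a subset of those libraries, and no test was made on them.

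Deeper cells show more genes, so detection was compared after every cell was thinned to 1000 UMIs, which left out 391 shallower cells (93 and 100 of the Tet- islet libraries, 26 and 43 of the Tet+ ones, and 72 and 57 of spleen). At that depth Hspa1a or Hspa1b was detected in 1.78% and 5.67% of Tet- islet cells, 1.70% and 6.24% of Tet+ islet cells, and 16.2% and 14.7% of spleen cells. Without thinning, Hspa1b alone was detected in 3.73% and 6.91%, 3.24% and 7.01%, and 23.1% and 12.7%, although spleen cells were the shallower ones. No sorted population here should lack these genes, so no background share from free RNA could be set beside them. Hspd1 showed the opposite order, with 16.6% and 19.2%, 21.4% and 20.3%, and 8.26% and 8.77% of thinned cells. Hsp90ab1 (78.8% to 90.9%) and Hspa8 (77.8% to 82.7%) were detected in most cells of every library.

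The inducible HSP70 transcripts were spread unevenly over cells. The Fano factor, the variance of the count over its mean, which is 1 for counting noise alone, was 4.50 for Hspa1a in Tet- and 5.21 in Tet+ islet cells of Round 2, against 1.45 and 2.22 in the spleen libraries and 1.23 and 0.992 in the Round 1 islet libraries. For Hspa1b it was 2.80 and 3.32 in Tet- islet cells, 0.992 and 2.36 in Tet+ islet cells and 1.67 and 1.70 in spleen. Single cells held up to 91 and 53 Hspa1a UMIs in those Round 2 islet libraries and up to 14 and 17 in spleen. In the Round 1 islet libraries the highest cells held 7 (Tet-) and 3 (Tet+), so the highest islet cells held more copies than those of spleen in Round 2 and fewer in Round 1. The 8 other members had Fano factors from 0.99 to 1.64.

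At least 2 of the 4 inducible members (Hspa1a, Hspa1b, Dnajb1 and Hsph1) were detected together in 2.90% (exact 95% interval 2.50 to 3.35) and 5.83% (5.35 to 6.34) of thinned Tet- islet cells of Rounds 1 and 2. The share was 2.46% (1.65 to 3.52) and 5.59% (4.51 to 6.86) in Tet+ islet cells and 12.1% (11.1 to 13.3) and 10.3% (9.09 to 11.6) in spleen, which did not overlap with islets. The intervals cover counting error only. These shares also follow the detection of single members, and no share predicted from it was set beside them. Dnajb1 alone was detected in 31.3% and 21.2% of thinned spleen cells and in 14.9% to 18.1% of those of the islet libraries. Cells with at least 3 Hspa1a and Hspa1b UMIs made up 0.268% and 1.42% of Tet- islet cells and 2.14% and 3.03% of spleen cells. In Tet+ islet cells they made up 0 of 1178 cells in Round 1, where a count of 3 would be 0.255% and the exact 95% interval reaches 0.313%, and 1.86% in Round 2. Immediate-early transcripts follow T cell activation and tissue dissociation alike. Fos, Jun, Nr4a1 and Egr1 were each more frequent in cells with a Hspa1a or Hspa1b UMI in the 4 islet libraries, without a test. In spleen the share with over the share without was 1.10 and 1.22 for Jun, 1.03 and 1.36 for Nr4a1 and 1.12 and 1.30 for Egr1. In islets these ratios ran from 1.70 to 2.92, 1.68 to 2.89 and 1.27 to 2.27 in the same order. Fos was detected in 49.6% and 35.5% of Tet- islet cells with a Hspa1a or Hspa1b UMI and in 12.8% and 15.1% of those without, in 25.0% (of 20 cells) and 34.0% of Tet+ islet cells with and in 8.98% and 11.9% without, and in 25.0% and 28.3% of spleen cells with and in 30.1% and 25.2% without.

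**Figure D3:**
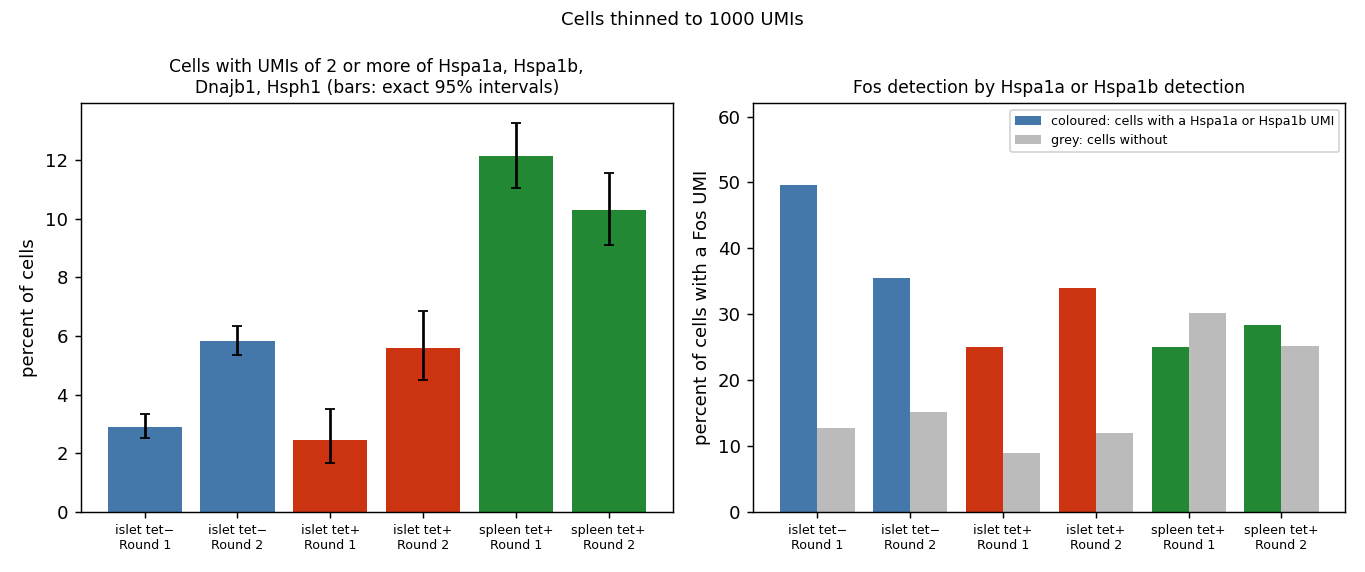
Left, percent of cells (vertical axis) with UMIs of 2 or more of Hspa1a, Hspa1b, Dnajb1 and Hsph1 in each library (horizontal axis), with exact 95% intervals as bars. Right, percent of cells with a Fos UMI among cells with (coloured) and without (grey) a Hspa1a or Hspa1b UMI. All cells were thinned to 1000 UMIs. Spleen has the highest shares on the left, at 12.1% and 10.3%, and the gap between coloured and grey is wide in islets and narrow in spleen.

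Across cells of a library the members were weakly correlated, apart from the HSP70 pair. Pearson's r of log2(1 + thinned count) was averaged over the 6 libraries (1178 to 8832 cells each), whose cells share library, depth and free RNA. For Hspa1a with Hspa1b it was 0.40 (0.09 to 0.61), in which reads shared between the paralogs cannot be told apart from joint expression. The pair was seen together in 3.25 to 32.4 times as many cells as the product of their shares gives, with 1 to 133 such cells per library. Next came Hspa1a with Dnajb1 (0.15), Hspa1a with Hsp90aa1 (0.14), and Hspa1b with Hsp90aa1 and with Dnajb1 (0.13 each). Hspd1 with Hspe1, the pair sharing a start region, had a mean r of 0.06. The median over all 45 pairs was 0.06, with 9 pairs over 0.1 and 32 positive in every library. Pairs of the same role had a median of 0.10 (10 pairs) and pairs of different roles 0.05 (35 pairs).

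**Figure D4:**
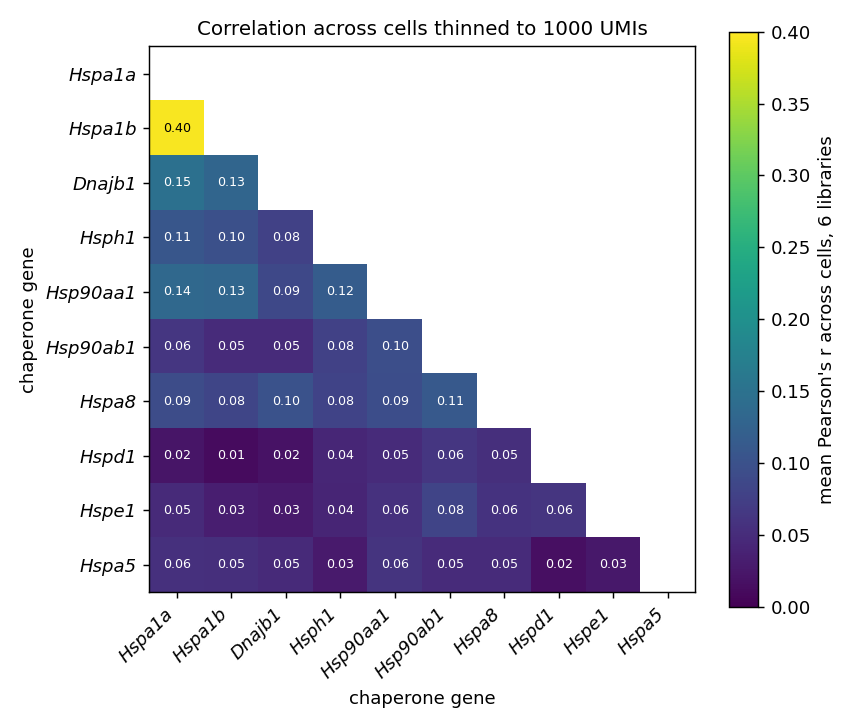
Mean Pearson's r over 6 libraries (colour and printed value) between log2(1 + count) of each pair of chaperone genes (both axes) across cells thinned to 1000 UMIs. Hspa1a with Hspa1b stands at 0.40, and the next highest value is 0.15, for Hspa1a with Dnajb1.

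Among 5623 genes with a mean of at least 20 CPM, the 5 whose counts across cells were most like the summed inducible members were the chemokine gene Ccl4 (mean r 0.11), the interferon gamma gene Ifng (0.10), the NF-kappa B inhibitor gene Nfkbia (0.10), Fos (0.09) and the HSP40 gene Dnaja1 (0.09). For the constitutive cytosolic members they were Ptma, Dnaja1, Ppia, Ubb and Xcl1, for the mitochondrial members Rps2, Mif, Ptma, Ppia and Nme2, and for Hspa5 Nkg7, H2-D1, Bhlhe40, Ccl5 and Junb. None of these means exceeded 0.11, and correlations of this size in sparse counts are given as a description only.

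Nr4a1 is an immediate-early gene of T cell receptor signalling, and cells with at least 1 Nr4a1 UMI were compared with cells without inside each library. Hspa1a was at 15.5 CPM with Nr4a1 and 5.11 without in Tet- islet cells of Round 1 and at 127.0 and 52.9 in Round 2. In Tet+ islet cells it was at 15.4 and 4.24 and at 139.7 and 64.9, and in spleen at 83.5 and 79.2 and at 196.2 and 153.2. The ratio was 2.15 to 3.62 in the 4 islet libraries and 1.06 and 1.28 in spleen. Hspa1b had ratios of 3.42, 2.23, 2.79 and 1.78 in the islet libraries (Tet- Rounds 1 and 2, then Tet+) and 0.851 and 1.90 in spleen. For Dnajb1 the levels with and without were 217.7 and 148.0, 211.3 and 148.7, 221.7 and 177.9, and 194.4 and 151.9 in the islet libraries and 381.4 and 393.5, and 209.9 and 235.6 in spleen.

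Over all 6 libraries, with the library as a block, 5 members rose in cells with Nr4a1, where 5.96% of all genes did, and none fell (5.56% of genes). They were Hspa1a (log2 difference 0.98 ± 0.11 SE, edgeR adjusted p = 1.13e-06), Hspa1b (0.89 ± 0.14, adjusted p = 0.000105), Dnajb1 (0.29 ± 0.06, adjusted p = 0.00209), Hsp90aa1 (0.13 ± 0.04, adjusted p = 0.0277) and Hspa5 (0.15 ± 0.04, adjusted p = 0.0315). Cells with Nr4a1 were deeper in every library, and after thinning the count was 6. Leaving out the Round 2 Tet- islet library left Hspa1a and Hspa1b alone (Dnajb1 adjusted p = 0.0535 in edgeR), and leaving out the Round 1 one left 3. In the islet libraries alone the same 5 rose (6.91% of all genes higher), and in the spleen libraries alone edgeR called none, with 1 member under an unadjusted p of 0.05 (Hspe1) and 0.0606% of all genes called. The spleen classes were small, with 354 and 99 cells with Nr4a1. The libraries of a round share a pool of mice, so the 6 libraries came from 2 pools.

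The difference between tissues was itself tested. The log2 effect of Nr4a1 was larger in islets than in spleen by 1.06 ± 0.14 for Hspa1a (edgeR adjusted p = 0.000671), 1.21 ± 0.20 for Hspa1b (adjusted p = 0.00309) and 0.49 ± 0.10 for Dnajb1 (adjusted p = 0.0265). These are 3 of 10 members, where 0.167% of all genes had a larger effect in islets. Hsph1, the fourth inducible member, had a difference of -0.11 ± 0.16 (adjusted p = 0.959), and the other 6 did not pass in edgeR.

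**Figure D5:**
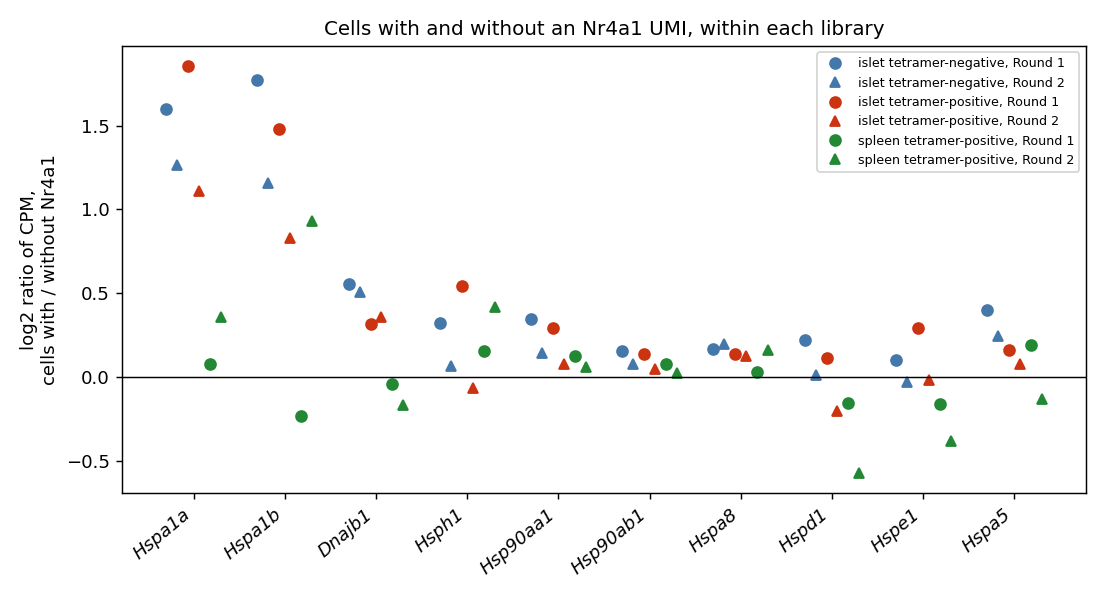
Log2 ratio of CPM in cells with over cells without an Nr4a1 UMI (vertical axis) for each chaperone gene (horizontal axis), with 1 point per library, coloured by sorted group, a circle for Round 1 and a triangle for Round 2. The islet ratios of Hspa1a run from 2.15 to 3.62 before the logarithm and those of spleen are 1.06 and 1.28, and Dnajb1 is below 0 in both spleen libraries.

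Dividing cells, taken as those with UMIs of at least 2 of 8 cell cycle genes, were compared with the other cells of their library. They numbered 168 to 379 per islet library and 7 and 17 in spleen, and islet dividing cells were deeper (median 8757 to 9512 UMIs against 3412 to 3827). The 8 genes themselves were higher in islets than in spleen, 8 of 8 for Tet+ and 7 of 8 for Tet- cells in edgeR. Of all genes 13.7% and 12.2% were higher in these comparisons. No member passed in edgeR over the 6 libraries, where 47.2% of all genes did, while 1 member was under an unadjusted p of 0.05 (Hspd1) and DESeq2 called 1 (Hspa5, lower). Hspa8 was at 2210 CPM in dividing cells and 1760 in the others of the Tet- islet library of Round 1 and at 2428 and 1989 in Round 2, and at 1948 and 1735 and at 2472 and 2047 in the Tet+ islet libraries. In the islet libraries alone it rose (log2 difference 0.27 ± 0.07, edgeR adjusted p = 0.00922). Hspd1 (0.22 ± 0.07, adjusted p = 0.0176) and Hspa1a (0.32 ± 0.12, adjusted p = 0.0399) rose there too, 3 members where 24.9% of genes rose in edgeR. Hspa1a was at 10.7 CPM in dividing and 8.87 in other cells and at 133.8 and 85.0 in the Tet- islet libraries, and at 7.61 and 9.11 and at 106.3 and 105.8 in the Tet+ ones, where it was not higher in Round 1 and nearly equal in Round 2. Over the 6 libraries its log2 difference of 0.19 (edgeR adjusted p = 0.278) became -0.15 without the Round 2 Tet- islet library and -0.44 in thinned cells.

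In spleen the dividing cells held 0 Hspa1a UMIs in Round 1, where a count of 3 would give 116.8 CPM, and 2 in Round 2, and 5 and 6 Dnajb1 UMIs. The difference between the islet and spleen effects of division was 3.15 ± 0.71 on the log2 scale for Hspa1a (edgeR adjusted p = 0.04999) and 1.62 ± 0.35 for Dnajb1 (adjusted p = 0.0456), 2 members where 0.348% of genes passed in that direction. With so few UMIs these fitted values depend on the prior count and bound nothing.

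Clone size came from the paired receptor sequences, and cells of clones with at least 2 cells were compared with singlets in the Tet- islet and the spleen libraries. Hspa1a was at 8.86 CPM in expanded and 8.37 in singlet cells and at 113.0 and 74.7 in the islet libraries, and at 84.5 and 51.2 and at 170.3 and 74.3 in spleen, so that it was higher in expanded cells in 4 of 4 libraries (log2 difference 0.47 ± 0.15, edgeR adjusted p = 0.0451). Hspe1 was lower in 4 of 4, at 168.7 and 197.6, 568.8 and 694.7, 123.5 and 136.5, and 336.8 and 388.2 (log2 difference -0.42 ± 0.08, edgeR adjusted p = 0.00494). These were 1 member higher, where 13.8% of genes were, and 1 lower, where 12.3% were. Neither call held in cells thinned to 1000 UMIs, where Hspa1b alone was called, and DESeq2 called Hspe1 alone. Expanded cells were deeper than singlets in islets (median 4595 and 4297.5 UMIs against 3811 and 3731). In spleen they were shallower (2612 and 2838.5 against 3856.5 and 4138). Without the Round 2 Tet- islet library or the Round 2 spleen library the Hspa1a call was lost (edgeR adjusted p of 0.166 and 0.112), and scaling by library totals alone raised the median of all genes by 0.19 and gave 5 members higher and none lower.

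In the spleen libraries alone, with 1408 and 1506 expanded and 252 and 162 singlet cells, 3 members were higher in expanded clones (9.15% of all genes were) and 3 lower (9.18%). Hspa1b was at 176.9 in expanded and 70.3 in singlet cells of Round 1 and at 91.1 and 30.3 in Round 2 (log2 difference 1.11 ± 0.16, edgeR adjusted p = 7.31e-11). Hspa1a and Hsp90aa1 were higher as well, and Hspd1 (-0.57 ± 0.14, edgeR adjusted p = 0.000284), Hspe1 and Hspa8 lower. With 2 libraries the spread in this fit came mostly from all genes, so these p-values do not measure the spread between pools. In the islet libraries alone Hspa1a and Hspa5 were higher (24.6% of all genes were) and Hspe1 and Hsph1 lower (22.3%).

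Cell states were set by UMI gates on genes that are no members, in the 4 islet libraries and without a test. Cells with Havcr2 and Pdcd1 were taken as effector-like cells with coinhibitory receptors. They had 241.3, 290.8, 288.3 and 282.5 CPM of Hspd1 in Tet- Round 1 and 2 and Tet+ Round 1 and 2. Cells with Tcf7 and Pdcd1 but no Havcr2, a gate for progenitor-like cells, had 178.1, 192.5, 218.2 and 213.1, so the ratio was 1.32 to 1.51 and above 1 in 4 of 4 libraries. The ratio of Hspa5 was 1.05 to 1.41 and that of Hspa8 1.02 to 1.15, also above 1 in 4 of 4, whereas that of Hspe1 was 0.824 to 0.980. Hspd1 and Hspe1 differed in direction between these gates although they share a start region. Hspa1a was split, with ratios from 0.804 to 2.69 and 2 of 4 above 1. In spleen, the 843 and 665 cells with Cx3cr1, a marker of cytotoxic effector cells, had Hspa1a at 117.6 and 232.7 CPM and Hspa1b at 252.9 and 117.2 CPM, each above the level of its whole library.

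Other chaperone genes were read from lists chosen with earlier results of these data known. Between Tet+ and Tet- islet cells no gene of the chaperone lists passed in edgeR without the block, where 1.19% of all genes did. With the round as a block, where 30.5% of all genes passed in either direction, 6 were higher and 4 lower of 39 further cytosolic chaperones and co-chaperones, 4 and 2 of 23 ER genes, 3 and 0 of 12 mitochondrial and 2 and 0 of 14 CCT and prefoldin genes. Against spleen, 6 of the 39 cytosolic genes were higher and 2 lower in Tet+ islet cells, where 13.7% of all genes were higher and 12.9% lower. With the block 18 and 6 were (28.0% and 27.1% of all genes), and the median log2 difference without it was 0.20 against -0.03 for all genes. Among the genes called without the block were the HSP70 relative Hspa14 (84.2 and 90.6 CPM in islets, 34.6 and 32.9 in spleen, edgeR adjusted p = 0.00443) and the HSP40 gene Dnajb6 (267.3 and 318.6 against 122.8 and 133.6, adjusted p = 0.00482), which were higher. Chordc1, which encodes an HSP90 co-chaperone (49.0 and 52.4 against 90.1 and 93.4, edgeR adjusted p = 0.0186), was lower, as was the HSP40 gene Dnajb4.

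ER chaperone and unfolded protein response genes, the group around Hspa5, counted 9 higher and none lower of 23 in that comparison, against the 13.7% and 12.9% of all genes, and 15 and 1 with the block, against 28.0% and 27.1%. Their median log2 difference was 0.66. Xbp1, the transcription factor of this response, stood at 101.5 and 163.3 CPM in Tet+ islet cells and 31.2 and 42.4 in spleen (edgeR adjusted p = 0.00698), and Ern1, which encodes its sensor IRE1, at 15.1 and 25.1 and at 3.12 and 5.36 (adjusted p = 0.00720). Of 14 chaperonin CCT and prefoldin genes 1 was higher, Cct2, and with the block 11 were, with a median log2 difference of 0.51. Of 12 further mitochondrial chaperones 1 was higher and 1 lower, and with the block 4 and 2 were, with a median of 0.11. In Tet- islet cells against spleen the counts were 8 higher and 1 lower for the cytosolic list, 4 and 1 for the ER list, 1 and 0 for CCT and 0 and 3 for the mitochondrial list, where 12.2% of all genes were higher and 10.2% lower. With the block they were 16 and 6, 14 and 1, 7 and 0, and 2 and 4 in the same order, where 29.2% and 26.3% of all genes passed.

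Immediate-early genes often seen after tissue dissociation were also counted beside the inducible members. Of 15, 4 were lower (Fos, Jun, Ier2 and Zfp36) and 2 higher (Socs3 and Atf3) in Tet+ cells of islets than of spleen, where 12.9% of all genes were lower and 13.7% higher. With the block 8 were lower and 3 higher (27.1% and 28.0% of all genes). In Tet- cells 2 were lower (Jun and Ier3) and 2 higher (Socs3 and Atf3), where 10.2% and 12.2% of all genes were, and with the block 4 and 4 (26.3% and 29.2%). Between Tet+ and Tet- islet cells none of the 15 passed without the block, where 1.19% of all genes did. With the block 1 was higher and 5 were lower, where 30.5% of all genes passed in either direction. Zfp36 and Atf3 are named from their counts after their values were seen. Fos stood at 184.6 and 221.5 CPM in Tet- islet cells, 115.0 and 182.7 in Tet+ islet cells and 416.9 and 342.8 in spleen, and Jun at 148.4 and 191.1, 89.8 and 145.6, and 536.4 and 425.3. Fos and Jun were highest in the spleen libraries. Socs3, a feedback inhibitor of cytokine signalling, went the other way, at 172.7 and 254.1, 55.4 and 94.1, and 38.6 and 40.5, as did Atf3, a stress-responsive transcription factor, at 8.10 and 10.6, 4.25 and 6.14, and 0.624 and 0.579. The 15 genes summed to 4717 to 6976 CPM in Tet- islet cells, 3237 to 5685 in Tet+ islet cells and 5504 to 5874 in spleen, so that the groups overlapped. The part of bead enrichment, red cell lysis or the 1 h rest of the islet cells in these levels was not tested. With cells that held exocrine, endocrine, myeloid, B or erythroid transcripts left out, the Hspd1 calls against spleen held, and Hspa1b in Tet+ cells kept its log2 difference of -2.29 (edgeR adjusted p = 0.0511).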

How the data were processed

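The authors deposited 6 matrices of raw UMI counts per gene and cell, made with Cell Ranger on the mm10 transcriptome (version 5.0.1 per the file headers, while the study's methods name another), and receptor contigs assembled from the same cells. From those counts, cells with under 5% mitochondrial UMIs and 200 to 3500 (islets) or 2000 (spleen) genes were kept. The number of cells the study gives lies between the deposited and the kept number. No doublet caller was run and free RNA was not removed. Levels are CPM, that is UMI counts per 1000000 UMIs of a library. Detection, Fano factors and correlations used cells thinned to 1000 UMIs. Promoter windows came from RefSeq tables (GRCm38.p6), gene coordinates from GENCODE on GRCm38.

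UMI counts summed per library (or per library and cell class) were tested with the edgeR 4.0.16 quasi-likelihood test in R 4.3.3 (TMM, filterByExpr, Benjamini-Hochberg over all genes, called at an adjusted p of 0.05). DESeq2 1.42.0, other scalings and filters, thinning and leaving out libraries were the alternatives. The scripts were tested on simulated data. The study's methods give no test over libraries, so the comparison of groups had no term for the round. The round numbers pair the libraries, since the groups of a round came from the same pool of mice, and deviations from the group means correlated between groups at r of 0.694, 0.717 and 0.630 over 11277 genes. Fits with the round as a block are therefore given beside the results. Each comparison against spleen shares the spleen libraries, and the islet groups recur likewise. With 2 libraries per group, p-values of the group comparisons rest on 2 pools and on a spread estimated partly across genes. The cell class comparisons take libraries as blocks, although the libraries of a round share a pool of mice. They therefore rest on 2 pools too. Fits on 2 libraries alone take their spread mostly from all genes, so their p-values do not measure the spread between pools. In sums over cells, fewer expressing cells and less RNA per cell cannot be told apart without the detection shares.

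The members and all lists were chosen with earlier results of these data known. All 10 members are named. From each other list up to 3 genes per comparison and direction qualified, namely those with the largest change that passed, had the same direction in both rounds and reached 20 CPM in the higher group, of which a selection is printed. For each role the 5 genes most correlated across cells are named.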

Additional observations from a re-analysis of the deposited data

Results flagged for a closer look

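For 5 results, the effect of a cell class differed between islets and spleen in the edgeR interaction test. The Nr4a1 effect was larger in islets by 1.06 on the log2 scale for Hspa1a, by 1.21 for Hspa1b and by 0.49 for Dnajb1. The levels behind it were 2.15 to 3.62 times higher with Nr4a1 for Hspa1a in the islet libraries and 1.06 and 1.28 times in spleen, where 354 and 99 cells had Nr4a1. The effect of cell division was larger in islets by 3.15 for Hspa1a and by 1.62 for Dnajb1, which rested on 0 and 2 Hspa1a UMIs and 5 and 6 Dnajb1 UMIs in the 7 and 17 dividing spleen cells. Islet and spleen cells also differed in depth, in handling and in the stated CD44 gate, whose part in these differences was not tested.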

How the results depend on the processing

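The count of called members was 0 for Tet+ against Tet- islet cells under every alternative run. For Tet+ islet cells against spleen it was 2, and 7 with the round as a replicate block, 4 with DESeq2, 1 with library totals, only the 4 libraries compared, 2000 genes as the limit in all libraries, thinned cells or other-lineage cells left out, and 1 to 2 with 1 library left out. For Tet- islet cells against spleen it was 1, and 7 with the block, 3 without a filter, 2 with only the 4 libraries compared or DESeq2, and 0 to 1 with 1 library left out. For dividing cells it was 0, and 1 with totals or DESeq2, 3 in islets alone, and 0 to 1 with 1 library left out. For Nr4a1 it was 5, and 0 in spleen alone and 2 to 5 with 1 library left out. For clone size it was 2, and 5 with totals, 4 without a filter or in islets alone, 6 in spleen alone, 1 thinned or with DESeq2, and 1 to 3 with 1 library left out. Where the block changed the count of members, the calls are given with the results. Shares of all genes passing stand there for the main fits, the block and the fits of a single tissue. For the other settings no such share was set beside the counts. These counts may therefore follow how many genes passed in all and are not read as results about the members.

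Log2 differences changed sign as follows. Hspe1 in Tet- islet cells against spleen ran from -0.13 (without the Round 2 islet library) to 1.61 with 1 library left out. Hspa1a in dividing cells (0.19) was -0.44 thinned, -0.31 with DESeq2 and from -0.15 (without the Round 2 Tet- islet library) to 0.28 with 1 library left out, and Hspa8 (0.08) was -0.0656 thinned. In spleen alone the Nr4a1 effect was -0.0031 for Hspa1b and -0.0855 for Dnajb1. Hsph1 by clone size (-0.01) was 0.19 with totals, 0.0105 without a filter or with clones of at least 5 cells, 0.35 in spleen alone and 0.0087 with DESeq2. With 1 library left out it was 0.04 to 0.17 in the fits that changed sign, and the others stayed negative. Of 224 values of single members under the other alternatives, 172 kept direction and side of the threshold, as did 101 of 120 with 1 library left out. The cause of these changes was not tested.

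Limits: each group has 2 pooled libraries, and depth differs between tissues. Tissue, handling and the CD44 gate stated for spleen cannot be told apart, and the reads of Hspa1a and Hspa1b are not fully separable.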
